A study of Caenorhabditis elegans with 9 samples.

Results

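The genes described here are the math and bath genes of *C. elegans*, which encode proteins with a MATH domain alone or with a BTB domain and a MATH domain. They were chosen by name: every gene whose WormBase symbol starts with math- or bath-, provided that it was above 0 FPKM (fragments per kilobase of transcript, scaled to the library's total) in at least 3 of the 9 libraries. Of the 73 genes so named among the 20541 genes measured, 66 met this rule, 31 of 37 math genes and 35 of 36 bath genes, and the 7 others were above 0 in at most 2 libraries. RNA was sequenced from whole worms of 3 groups, with 3 libraries each. The control group was wild-type (WT) N2 worms on *E. coli* OP50, the standard laboratory food. In the infected group WT N2 worms were on the pathogen *P. aeruginosa* PA14. The mutant group, *egl-44(mt2247)*, carries a mutation of the gene for the EGL-44/TEAD transcription factor and was kept on OP50 like the controls. All animals were labelled adult, were placed in these conditions as young adults and were collected after 24 h at 25°C. The sources used here do not say whether the libraries of a group came from separate cultures, so every test below measures only the spread between these libraries.

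The MATH domain is a protein-binding fold shared by meprin proteases and TRAF signalling adaptors, and the BTB domain binds the scaffold protein cullin 3 (CUL-3). A BTB-MATH protein thus serves as the substrate adaptor of a CUL-3 ubiquitin ligase: the MATH domain holds the target and the BTB domain holds the ligase. The best studied worm example, MEL-26, brings the katanin subunit MEI-1 to CUL-3 for destruction after meiosis, so that the meiotic spindle can give way to the mitotic one. The name bath stands for BTB and MATH. Most math genes encode proteins with MATH domains and no BTB domain, but MATH-33 is different, since it is the worm homologue of the deubiquitinating enzyme USP7. Both families are greatly expanded in *C. elegans*, and no individual role is given here for a member whose role is not named.

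The 66 genes are crowded on chromosome II (WBcel235), which held 54 of them, 29 math and 25 bath genes. Chromosome I held 1 math and 4 bath genes, chromosome III held 3 bath genes, chromosome IV held 1 bath gene, and chromosome V held 1 math and 2 bath genes. When members less than 20000 bases apart were joined, the run with the most genes, II:1866381-1922765, held 18 math and bath genes, of which 13 met the rule. The next, II:1989310-2046656, held 12, of which 11 met it, and II:3343731-3378834 held 7 bath genes and no math gene. Coding lengths were 315 to 3414 bases in the math genes (median 1248) and 726 to 2118 bases in the bath genes (median 927). Some gene models overlap, and no source used here says how a read shared by overlapping or near-identical genes was assigned. For example, math-26 and math-3 share 2858 bases of gene span on the same strand, and bath-21 spans cya-2 on its strand. Shorter same-strand overlaps with other models were 260 bases for bath-9, 84 for bath-28, 68 for bath-39, 39 for bath-38 and 11 for math-37. Values of these genes are uncertain for that reason.

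The totals by which the libraries were scaled, recovered from the steps of the deposited values, were 13638251 to 17831389 reads. For a 1 kb transcript each read added 0.0561 to 0.0733 FPKM. Reads summed over genes nearly reached these totals (17289384 of 17293200 in OP50 replicate 1), so the number of reads sequenced is not known. The *egl-44* transcript was not lower in the mutant libraries, at 32.5, 37.8 and 28.2 FPKM against 16.1, 21.5 and 16.0 FPKM in WT on OP50, so its level does not check the labels. The *egl-44* libraries, although labelled adult, held little RNA of the adult germ line. The summed level of 11 oocyte and eggshell markers was 19.3 to 49.3 FPKM against 1063 to 2606 FPKM in WT on OP50 (11 of 11 fell). That of 31 major sperm protein genes was 22.3 to 230.3 FPKM against 13119 to 17474 FPKM (29 of the 29 tested fell). Of 8 intestine markers 3 fell and 3 rose. Those that fell were the yolk genes vit-2, vit-5 and vit-6, and vit-2 averaged 3.31 FPKM against 929.1 FPKM. Those that rose were ges-1, elt-2 and cpr-1 (log2 fold changes 1.15, 1.27 and 1.25). Of 10 moulting markers 9 rose, with a sum of 973 to 1497 FPKM against 57.5 to 572 FPKM. Among the PA14 libraries, replicate 2 stood apart, with correlations of 0.927 and 0.870 to the other PA14 libraries, which correlated at 0.964, and with 19.9 FPKM over 10 embryo markers against 0.644 to 3.61 FPKM in the other 5 WT libraries. In whole worms, fewer cells of a type and less RNA per cell cannot be told apart.

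The members spanned a wide range of levels. Averaged over the 9 libraries, 18 of the 66 reached 10 FPKM, 30 lay between 1 and 10 FPKM and 18 lay under 1 FPKM. The median member was at 1.75 FPKM among the math genes and at 4.13 FPKM among the bath genes. The 6 highest were bath-42, bath-40, math-33, bath-41, bath-44 and bath-30, and bath-42, at III:8161455-8163383 on the minus strand, led at 67.9 FPKM. At the low end math-5 had 3 reads in all 9 libraries together, 1 in each of 3 libraries, which is the smallest number that the rule admits. Just outside it, bath-33 had 11 reads, all in PA14 libraries, while math-16, math-6 and math-25 had 2 reads each, math-7 had 1, and math-13 and math-19 had 0. A count of 0 allows up to 3 reads per library, which is 0.168 to 0.220 FPKM for a transcript of 1 kb, by counting error alone.

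**Figure D1:**
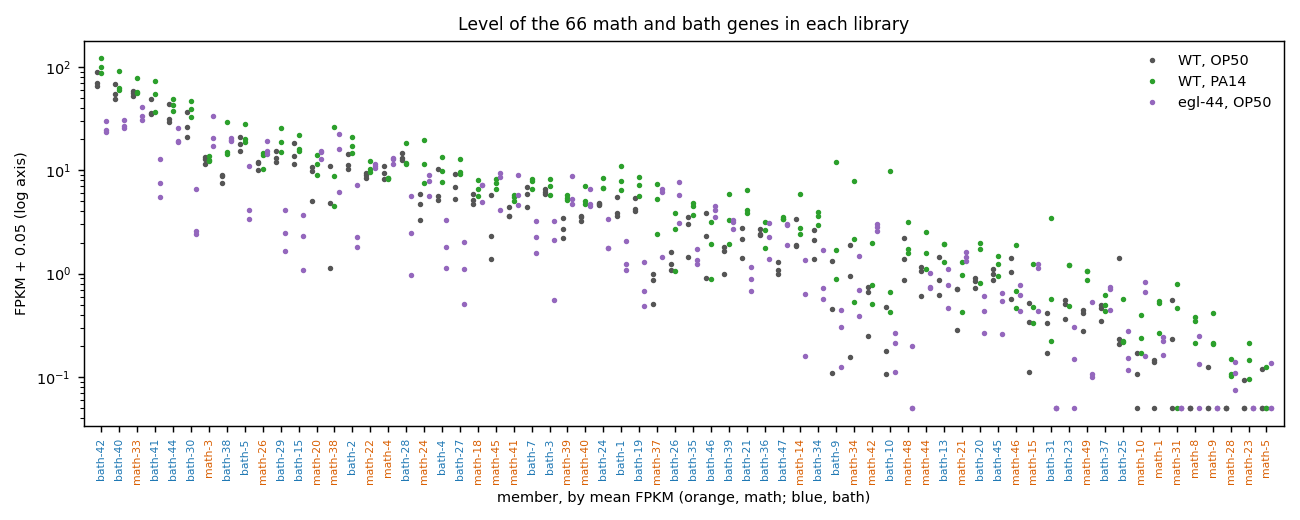
FPKM plus 0.05, on a log axis, of each of the 66 genes in the 9 libraries, ordered by mean FPKM (grey, WT on OP50; green, WT on PA14; purple, *egl-44* on OP50; math symbols in orange, bath symbols in blue). The *egl-44* points of many bath genes in the upper and middle range lie under those of both WT groups.

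The first comparison, WT on PA14 against WT on OP50, asks which of these transcripts differed on the pathogen. The members were slightly higher on PA14 as a group, and few of them stood out. The study's thresholds are p under 0.05 and a change of more than 2-fold, and p was taken here without adjustment. By these, 7 of the 55 members tested were called higher and 0 lower, where 6.99% of all 15760 genes tested were called higher and 1.78% lower. The 7 were math-37, math-24, math-45, bath-47, bath-38, bath-21 and bath-39, 3 of 22 math and 4 of 33 bath genes. After Benjamini-Hochberg adjustment over all genes tested with limma, 0 members passed in either direction (0.723% of all genes passed as higher and 0.0761% as lower). Of 55 members, 12 had an unadjusted p under 0.05, against 20.3% of all genes. The log2 fold change was above 0 in 51 of 55 members, against 67.5% of all genes, and its median was 0.54 over members and 0.25 over all genes. Germ-line markers differed between these groups as well. The 11 oocyte and eggshell markers were all above 0, with a median of 0.67 and 0 called. Of the 29 major sperm protein genes tested 0 were above 0, with a median of -0.75 and 4 called lower. What part germ-line content has in the levels of the members was not tested.

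The member with the largest fold change was math-37 (II:2116884-2122191, minus strand). It stood at 0.947, 0.458 and 0.810 FPKM in replicates 1, 2 and 3 on OP50 and at 2.37, 7.32 and 5.18 FPKM on PA14. All PA14 libraries lay above all OP50 libraries, although they spread widely among themselves. Its log2 fold change was 2.04 (SE 0.43, n = 3 and 3), with a limma adjusted p of 0.105, and it kept its call in 14 of the 14 settings in which it was tested.

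The most even change was that of bath-47 (II:1601811-1604621, plus strand), which has the longest coding sequence of the bath genes. Its level was 1.24, 1.04 and 0.938 FPKM on OP50 and 3.33, 3.52 and 3.37 FPKM on PA14, so the groups lay well apart and the replicates close together. The log2 fold change was 1.32 (SE 0.25, n = 3 and 3), with a limma adjusted p of 0.0859.

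For bath-38 (II:10042780-10045270, minus strand) the OP50 libraries had 7.50, 8.98 and 8.86 FPKM and the PA14 libraries 15.1, 29.3 and 14.5 FPKM. The groups did not overlap, but replicate 2 was well above the other PA14 libraries. Its log2 fold change of 1.10 (SE 0.31) was 0.78 without that library and was then no longer called.

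The level of math-24, which lies inside the run with the most genes, was 4.65, 5.80 and 3.28 FPKM on OP50 and 7.52, 19.8 and 11.6 FPKM on PA14. It followed the same pattern, with no overlap and PA14 replicate 2 highest. Its log2 fold change of 1.33 (SE 0.40) was 0.99 without that library, under the fold limit. A different spread was seen in math-45, at 1.34, 2.25 and 5.75 FPKM on OP50 and 8.23, 6.50 and 7.54 FPKM on PA14. Here the OP50 libraries were the uneven ones, and its log2 fold change was 1.32 (SE 0.46) with all libraries and 1.41 without PA14 replicate 2. Its call was lost without OP50 replicate 1 (0.93), OP50 replicate 2 (1.22), PA14 replicate 1 (1.25) or PA14 replicate 3 (1.31).

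The called members with the smallest fold changes were bath-21 and bath-39. Levels of bath-21 were 2.13, 2.72 and 1.38 FPKM on OP50 and 3.84, 6.41 and 4.08 FPKM on PA14 (log2 fold change 1.03, SE 0.33). Those of bath-39 were 0.937, 1.76 and 1.59 FPKM on OP50 and 3.29, 5.82 and 1.87 FPKM on PA14 (log2 fold change 1.02, SE 0.43). In both genes the groups did not overlap, by a narrow margin in bath-39, and bath-39 kept its call in only 3 of 14 settings. The call of bath-21 was lost without OP50 replicate 3 or PA14 replicate 2 (0.82 each). That of bath-39 was lost when any 1 library of OP50 was left out (0.82 to 1.15), without PA14 replicate 1 (1.03) and without PA14 replicate 2 (0.66).

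**Figure D2:**
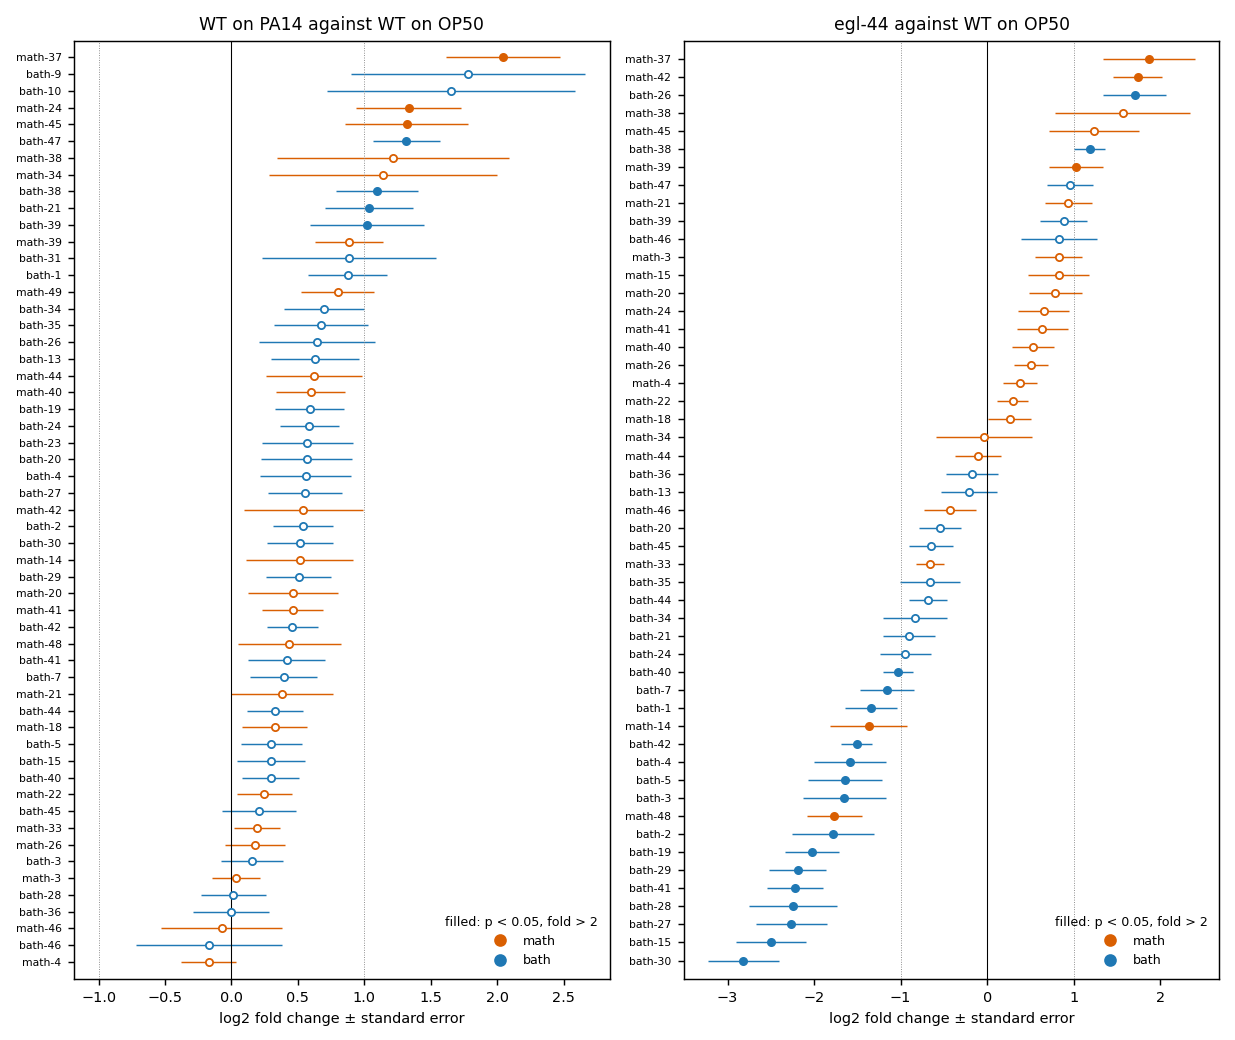
Log2 fold change with its standard error, from limma on log2(FPKM + 0.5), of the 55 members tested on PA14 (left) and the 51 tested in *egl-44* (right), each against WT on OP50 and ordered by size (orange, math; blue, bath; filled points, p under 0.05 and fold over 2). On PA14 nearly all points lie right of 0 and 7 are filled. In *egl-44* the lower end is made up almost wholly of bath genes.

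PA14 replicate 2 had the highest WT value of most members. Of the 55 members tested, 42 (76.4%) peaked there, 12 of 22 math and 30 of 33 bath genes, against 47.4% of all genes tested. Without it, 53 members were tested and 3 were called higher, math-37 (log2 fold change 1.73), math-45 (1.41) and bath-47 (1.30), and 0 lower, where 4.89% of all genes were called higher and 1.09% lower. The median over members was 0.37, against 0.18 over all genes, and 50 of 53 members were above 0, against 66.9% of all genes. That library also had the embryo marker RNA given above, and the part of either in these results was not tested.

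Some members stood high in that library alone. These were picked after their values had been seen, and none of them was called. The neighbours bath-9 and bath-10, at the end of the run of 7 bath genes, were the clearest: bath-9 had 0.0585, 0.407 and 1.26 FPKM on OP50 and 1.65, 12.1 and 0.838 FPKM on PA14. For bath-10 the OP50 levels were 0.0561, 0.130 and 0.424 FPKM and the PA14 levels 0.620, 9.82 and 0.371 FPKM. In both, PA14 replicate 2 stood far above the rest, while PA14 replicate 3 lay within the range of OP50. The same library had the highest value of bath-31 (3.40 FPKM, against 0.122 to 0.516 FPKM in the other WT libraries) and of math-34 (7.87 FPKM, against 0.105 to 2.09 FPKM).

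The PA14 and OP50 libraries did not overlap in 18 of 55 members, all of them higher on PA14, where 23.7% of all genes tested were so placed as higher and 6.53% as lower. Beside 7 called genes these were math-39, math-40, math-41, math-22, math-49, bath-34, bath-35, bath-1, bath-2, bath-19 and bath-24. The neighbours math-41, math-40 and math-39 form a run of their own, and math-39 was the highest of the 3 in fold change, at 3.37, 2.16 and 2.63 FPKM on OP50 and 5.14, 5.73 and 5.32 FPKM on PA14 (log2 fold change 0.89, SE 0.26). The 6 most abundant members had log2 fold changes from 0.19 (math-33) to 0.51 (bath-30), beside a median of 0.54 over members and 0.25 over all genes. Of these, bath-42 had 65.4, 69.6 and 89.4 FPKM on OP50 and 101, 122 and 86.8 FPKM on PA14, where the groups overlapped (log2 fold change 0.46, SE 0.19, limma adjusted p 0.243). The deubiquitinase gene math-33 had 56.4, 52.0 and 58.1 FPKM on OP50 and 57.7, 78 and 56.6 FPKM on PA14, with a log2 fold change of 0.19 (SE 0.17).

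The median of all genes was itself shifted by 0.25 on the log2 scale, and other scalings removed this. With median-of-ratios scaling the medians were 0.31 over members and 0.01 over all genes, and 3 members were called. With quantile normalization they were 0.24 and 0.03, and 2 were called. The members' median exceeded that of all genes by 0.30 as deposited, by 0.30 after the former scaling and by 0.21 after the latter.

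The second comparison, *egl-44* against WT on OP50, asks which transcripts differ in the mutant. Bath genes were lower in *egl-44* and math genes mostly were not. Of 51 members tested, 17 fell and 5 rose past the study's thresholds, where 23.4% of all 15488 genes tested fell and 17.9% rose. After adjustment over all genes tested the counts were again 17 and 5, beside 23.1% and 16.6% of all genes. The adjusted count of members that fell was 11 without *egl-44* replicate 1, and that of members that rose was 3 without OP50 replicate 2. Without adjustment, 8 rose when OP50 replicate 2 was left out. Among bath genes 15 of 29 fell and 2 rose, and among math genes 2 of 22 fell and 3 rose. An unadjusted p under 0.05 in either direction was found in 33 of the 51, against 64.6% of all genes. The median log2 fold change was -1.03 over bath genes, 0.58 over math genes and 0.12 over all genes.

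The family split held for the signs. The log2 fold change was below 0 in 24 of 29 bath genes, against 46.9% of all genes, and above 0 in 16 of 22 math genes, against 53.1% of all genes. In 20 of 29 bath genes all *egl-44* libraries lay below all OP50 libraries, where 35.6% of all genes did. In 11 of 22 math genes they lay above, where 34.1% of all genes did. The median stayed negative over bath genes and positive over math genes in each of the 15 other settings and scalings tried, from -1.78 to -0.80 and from 0.29 to 0.84. The germ-line, yolk and moulting markers given above separate the same libraries, so the mutation and the stage or tissue content of these worms cannot be told apart. The mutant libraries also carry a separate, later block of sample numbers than the WT libraries. Any difference in batch between them therefore cannot be told apart from the mutation either.

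**Figure D3:**
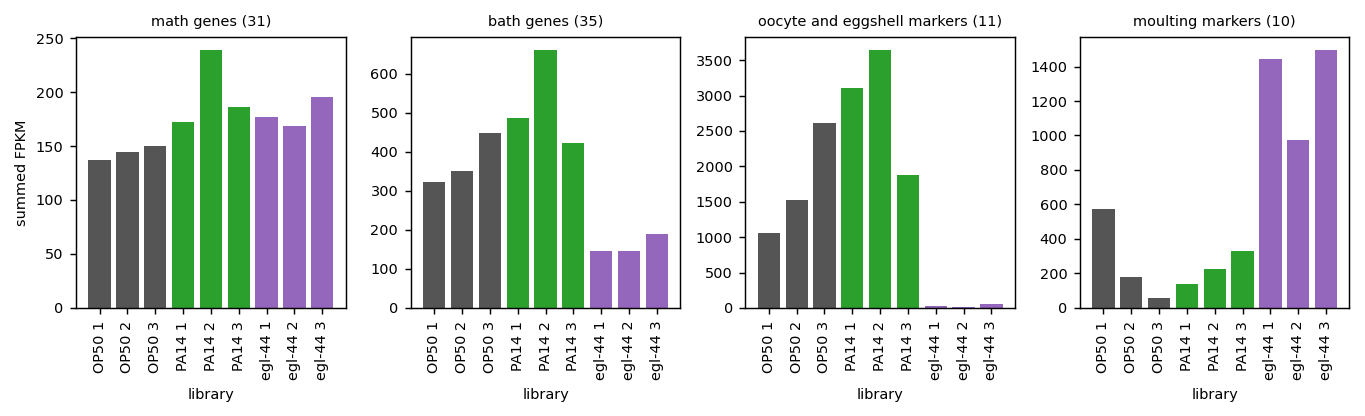
Summed FPKM of the 31 math genes, the 35 bath genes, 11 oocyte and eggshell markers and 10 moulting markers in each of the 9 libraries (grey, WT on OP50; green, WT on PA14; purple, *egl-44* on OP50). The bath sum of each *egl-44* library lies under that of every WT library, and the math sum does not.

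Summed, the bath genes gave 322.9, 350.8 and 449.1 FPKM in WT on OP50, 486.9, 661.0 and 422.0 FPKM on PA14, and 145.0, 144.7 and 190.0 FPKM in *egl-44*. The math genes gave 137.3, 144.7 and 150.2 FPKM, 172.0, 239.2 and 186.0 FPKM, and 176.8, 169.0 and 195.4 FPKM in the same order. The bath sum of *egl-44* was thus below every WT library, while the math sum of *egl-44* was above every OP50 library. Within the 6 WT libraries the bath sum had the same order as the sum of the oocyte and eggshell markers: OP50 replicates 1 and 2, PA14 replicate 3, OP50 replicate 3, then PA14 replicates 1 and 2, from 1063, 1526 and 1876 FPKM to 2606, 3109 and 3647 FPKM of marker RNA. This order was noticed after the values had been seen, and what part the oocyte content has in the bath levels was not tested.

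The lowest fold change was that of bath-30 (II:3345218-3346378, minus strand). It had 21.0, 26.2 and 36.6 FPKM in WT on OP50 and 2.35, 2.54 and 6.56 FPKM in *egl-44*, a mean of 27.9 ± 7.95 against 3.81 ± 2.38 FPKM (SD, n = 3). The groups were far apart, with a mean 7.33 times lower in *egl-44* and a log2 fold change of -2.82 (SE 0.41, limma adjusted p 0.00195).

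Its neighbours in the run of 7 bath genes fell with it. The log2 fold changes were -2.26 for bath-27, -2.24 for bath-28 and -2.19 for bath-29. In bath-29, for example, the OP50 libraries had 12, 13.1 and 15.3 FPKM and the *egl-44* libraries 2.44, 1.60 and 4.09 FPKM, with no overlap. The other 3 genes of this run, bath-23, bath-10 and bath-9, were too low to be tested in this comparison. Other gene models overlap bath-27 (1117 bases, same strand), bath-28 (84 bases, same strand) and bath-29 (1311 bases, opposite strand). The values of these genes thus carry the counting limit given above.

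The same fall was seen in bath genes far from any other member, on chromosome III. The gene bath-15 (III:7774677-7776033, minus strand) went from 11.4, 13.6 and 18.3 FPKM in WT on OP50 to 2.26, 1.03 and 3.68 FPKM in *egl-44* (log2 fold change -2.50, SE 0.41, limma adjusted p 0.00300). For bath-41 (III:6720415-6722258, minus strand) the levels were 35, 35.8 and 49.4 FPKM against 7.56, 5.46 and 12.8 FPKM (-2.22, SE 0.32, limma adjusted p 0.00201). The most abundant member, bath-42, fell from 65.4, 69.6 and 89.4 FPKM to 23.5, 24.4 and 29.8 FPKM (-1.51, SE 0.18), a mean 2.89 times lower with the smallest adjusted p of the members by limma, 0.000969. In all 3 genes every *egl-44* library lay below every WT library of either food.

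On chromosome I the second most abundant member, bath-40, had 49.1, 54.8 and 68.0 FPKM in WT on OP50 and 26.8, 30.5 and 25.6 FPKM in *egl-44* (log2 fold change -1.03, SE 0.17), just past the fold limit. It was within that limit without OP50 replicate 3 (-0.90) or *egl-44* replicate 3 (-0.98). By contrast bath-44 (II:7394955-7397351, plus strand), at 29.2, 31.2 and 43.7 FPKM against 18.8, 25.5 and 19.3 FPKM, stayed within it (-0.69, SE 0.22). Still, the *egl-44* libraries of bath-44 lay below all those of OP50.

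In the 2 long runs of chromosome II, bath genes and math genes lie side by side. There 7 of the 10 bath genes fell, while 1 of the 7 math genes tested fell and none rose. Of all genes tested, 23.4% fell and 17.9% rose. In the run at II:1989310-2046656 the 7 bath genes had log2 fold changes from -2.02 to -0.55 and the 3 math genes tested from -0.10 to 0.94. Of those bath genes, bath-19 (-2.02), bath-3 (-1.65), bath-5 (-1.65) and bath-1 (-1.34) fell. The level of bath-19 was 4.01, 4.2 and 5.35 FPKM in WT on OP50 and 0.627, 0.437 and 1.26 FPKM in *egl-44*. In the same run math-21 had 0.654, 0.658 and 0.235 FPKM on OP50 and 1.40, 1.27 and 1.56 FPKM in *egl-44* (0.94, SE 0.27), without passing the fold limit. These neighbours thus lay on opposite sides of WT, each with no overlap.

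In the run at II:1866381-1922765 the 3 bath genes fell, bath-2 by 1.78, bath-4 by 1.58 and bath-7 by 1.15 on the log2 scale. The 4 math genes tested there ranged from -1.37 to 0.83. Of them math-14 fell, from 3.31, 1.79 and 1.85 FPKM in WT on OP50 to 0.111, 0.580 and 1.30 FPKM in *egl-44* (SE 0.44). Its call was lost without OP50 replicate 1 (-1.13) or *egl-44* replicate 1 (-0.97), and that of bath-7 without *egl-44* replicate 2 (-0.94). Another math gene fell in a separate short run: math-48 (II:1945438-1946527, minus strand) had 0.820, 2.14 and 1.33 FPKM in WT on OP50 and 0, 0 and 0.148 FPKM in *egl-44*. These 3 *egl-44* values are 2 reads in all, against 57 reads in OP50 libraries, so its fitted log2 fold change of -1.77 (SE 0.32) depends on the pseudocount. Under the other settings it ranged from -4.40 to -1.18.

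**Figure D4:**
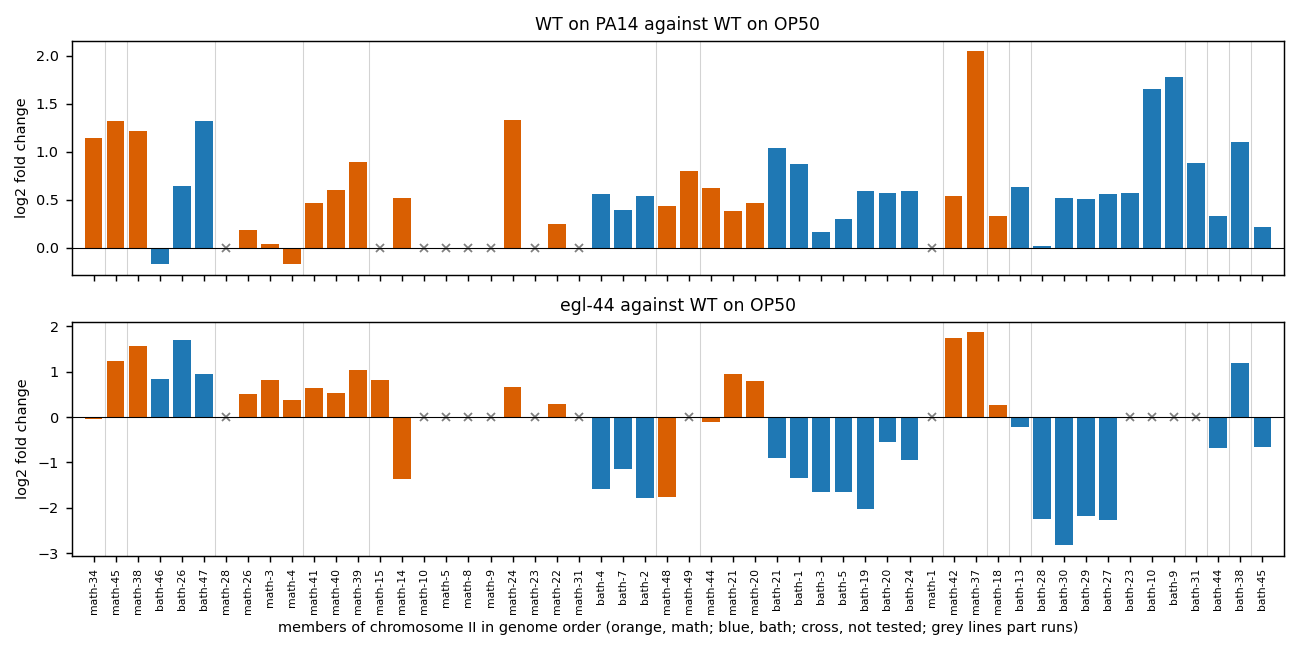
Log2 fold change of the members of chromosome II in genome order, on PA14 (top) and in *egl-44* (bottom), each against WT on OP50 (orange, math; blue, bath; cross, not tested; grey lines part runs of members less than 20000 bases apart). In *egl-44* the blue bars of the middle and right runs point down, from -2.82 to -0.21, while most orange bars point up; bath-46, bath-26 and bath-47 at the left and bath-38 at the right point up.

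The 5 members that rose in *egl-44* were math-37, math-42, bath-26, bath-38 and math-39. Of these math-42 and math-37 are neighbours, at II:2099926-2104180 on the plus strand and at II:2116884-2122191 on the minus strand. The level of math-42 was 0.689, 0.615 and 0.200 FPKM in WT on OP50 and 2.77, 2.96 and 2.55 FPKM in *egl-44* (log2 fold change 1.74, SE 0.28, limma adjusted p 0.00306). It was even within *egl-44*, while OP50 replicate 3 lay well under the other OP50 libraries. On PA14 it had 0.455, 1.94 and 0.730 FPKM, overlapping OP50. In *egl-44*, math-37 stood at 6.12, 1.40 and 6.49 FPKM, uneven but above each OP50 library (1.87, SE 0.53).

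Among bath genes the rise was seen in bath-26 and bath-38. For bath-26 (II:1599461-1600761, minus strand), in the left-most run with bath genes, the levels were 1.56, 1.18 and 1.04 FPKM on OP50 and 5.77, 3.06 and 7.72 FPKM in *egl-44* (1.70, SE 0.36). Its neighbours bath-46 and bath-47 were also above 0, at 0.83 and 0.96, but were not past the fold limit. The 3 *egl-44* libraries had 19.3, 20.6 and 19.4 FPKM of bath-38, close together and above every OP50 library (1.18, SE 0.18, limma adjusted p 0.00217). With 5.24, 4.64 and 8.74 FPKM in *egl-44*, math-39 was just past the fold limit (1.03, SE 0.31). It was no longer called without OP50 replicate 2 (0.90) or *egl-44* replicate 3 (0.77).

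Both math-37 and bath-38 were called higher in both comparisons, which share the OP50 libraries. The level of bath-38 in *egl-44* lay between the PA14 replicates, and that of math-37 overlapped them. No member was called higher on PA14 and lower in *egl-44*. The shares of all genes called in these ways were not counted, so neither count has a background to be set beside. Of the 7 called higher on PA14, bath-21 was the only one below 0 in *egl-44*, at 1.10, 0.631 and 0.846 FPKM (log2 fold change -0.90, SE 0.30), under all OP50 libraries but within the fold limit.

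**Figure D5:**
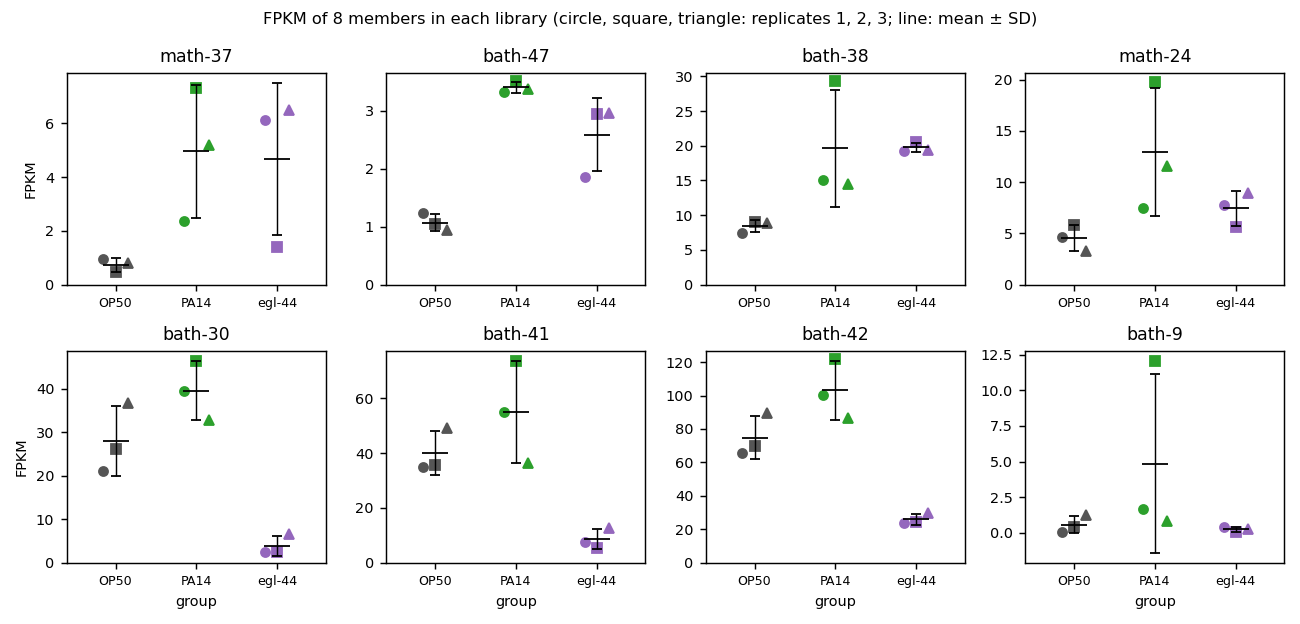
FPKM of 8 members in each library of the 3 groups (circle, square and triangle, replicates 1, 2 and 3; black line, mean with SD; n = 3). The axis of bath-9 runs below 0 because the SD exceeds the mean. Among the PA14 points the square is highest in all 8 panels, and the *egl-44* points of bath-30, bath-41 and bath-42 lie under all WT points.

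The enzyme gene math-33 (V:11113907-11118824, plus strand) was among the 6 of 22 math genes below 0 in *egl-44*. It had 33.8, 30.6 and 41 FPKM there, below all OP50 libraries (log2 fold change -0.66, SE 0.16, limma adjusted p 0.0125), a mean 1.58 times lower that stayed within the fold limit. The 2 math genes outside chromosome II, math-33 and math-46, were both below 0, whereas 16 of the 20 tested on chromosome II were above 0. For bath genes 17 of 21 on chromosome II and 7 of 8 elsewhere were below 0.

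The CUL-3 ligase genes, into which BTB-MATH adaptors feed, were taken as a list of 14. It held cul-3 itself, its RING partner rbx-1, cand-1, the NEDD8 pathway and the COP9 signalosome. The NEDD8 pathway puts NEDD8 on cullins and the signalosome takes it off. On PA14 none of the 14 was called at the study's thresholds with limma, beside 6.99% of all genes called higher and 1.78% lower. Their median log2 fold change was 0.26, near that of all genes (0.25). All 14 of 14 were above 0, against 67.5% of all genes. In *egl-44* 1 of 14 fell, cul-3, from 79.2, 77.0 and 95.9 FPKM in WT on OP50 to 35, 29.3 and 43.8 FPKM (-1.22, SE 0.19, limma adjusted p 0.00255). The other 13 were below 0 as well, none of them past the fold limit, with a list median of -0.59. Among the other cullin genes, cul-1, cul-2, cul-4 and cul-5 had -0.69, -0.61, -0.79 and -0.07 and cul-6 had 0.46, none past the fold limit. Of all genes tested in *egl-44*, 23.4% fell and 46.9% were below 0, with a median of 0.12.

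The adaptor mel-26, which carries a name of its own and so is not a member, lay on the same sides of WT on OP50 as bath-42. It had 50.7, 58.0 and 82.9 FPKM in WT on OP50, 84.5, 109.5 and 68.4 FPKM on PA14 (log2 fold change 0.45, SE 0.25, not called), and 27.7, 25.1 and 23.4 FPKM in *egl-44* (-1.29, SE 0.21). Its target mei-1 and the partner subunit mei-2, both of which act in oocyte meiosis, fell in *egl-44* by 1.84 and 4.19 on the log2 scale. The 11 oocyte and eggshell markers had a median of -5.15 there.

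Other genes of ligases and their adaptors were set beside the members as fixed lists. On PA14 3 of 15 btb genes tested, which encode BTB proteins, 5 of 24 other cullin and skr genes, and 46 of 121 fbxa genes, which encode F-box adaptors of the SCF ligase, were called higher, where 7 of 55 members and 6.99% of all genes tested were. Without PA14 replicate 2 these counts were 0 of 12, 3 of 23, 37 of 111 and 3 of 53, beside 4.89% of all genes. In *egl-44* 5 of 12 btb genes fell and 2 rose, 6 of 20 cullin and skr genes fell and 4 rose, and 25 of 111 fbxa genes fell and 22 rose, beside 17 of 51 members that fell and 5 that rose. Of all genes tested 23.4% fell and 17.9% rose.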

How the data were processed

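The authors deposited 1 table per library with FPKM values of 20541 genes, scaled by transcript length and library total; the submitters' processing notes name Bowtie2 2.2.3, TopHat2 2.0.12, HTSeq 0.6.1, DESeq 1.18.0 and build WBcel235, without roles. Symbols were matched to 19587 identifiers, and positions came from the Ensembl 115 annotation of WBcel235. Whole reads (within 0.01) were found for all 19711 genes above 0, at the annotated length for 1894 of them. For the other 17817 the shortest length that gave whole reads was searched for. Their read numbers are thus the fewest that match the values. The range given for a count of 0 covers counting error only. Fits used limma 3.58.1 with trend (R 4.3.3) on log2(FPKM + 0.5) over genes that averaged 0.5 FPKM or more in the 6 libraries compared, which understates the fold change of low genes. A call was unadjusted p under 0.05 with a fold over 2; adjustment was Benjamini-Hochberg over all genes. The script was tested on simulated data. Members and lists were chosen with earlier results of these data known. Named genes were up to 12 called members per direction and comparison, the 6 of highest mean, math-33, bath-42, mel-26 and cul-3; others were named after their values were seen. Alternatives were other pseudocounts, filters, scalings, 1 fit of all libraries, a replicate block, limma voom on recovered reads, and leaving out each library.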

Additional observations from a re-analysis of the deposited data

How the results depend on the processing

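Members called higher on PA14 numbered 7, but 3 with a mean of at least 5 FPKM, 3 with median-of-ratios scaling, 2 with quantile normalization, and 3 to 10 when a library was left out (3 without PA14 replicate 2: math-37, math-45 and bath-47); after adjustment the count was 0, but 1 with 1 fit of all 9 libraries. The PA14 median of 0.54 was 0.24 with quantile normalization. In *egl-44* the 5 members that rose numbered 8 with a pseudocount of 0.1 FPKM, 1 with a mean of at least 5 FPKM, 13 with quantile normalization, 9 with limma voom, and 5 to 8 when a library was left out (8 without OP50 replicate 2). The 17 that fell numbered 9 with a mean of at least 5 FPKM, where fewer members were tested, and 10 instead of 22 then passed after adjustment in both directions. The *egl-44* median over all members, -0.43, was -0.63 with a pseudocount of 0.1 FPKM, -0.19 with no filter, -0.20 with a mean of at least 5 FPKM, -0.0028 with quantile normalization, -0.67 with limma voom, and -0.56 to -0.21 when a library was left out (-0.21 without OP50 replicate 2 and -0.25 without OP50 replicate 3). On PA14 the sign turned for bath-3 (-0.080 with median-of-ratios scaling, -0.095 with quantile normalization), bath-28 (-0.23, -0.21, and -0.20 to 0.13 when a library was left out) and math-33 (-0.060 with median-of-ratios scaling), none of which was called. The cause of these shifts was not tested, except that a higher filter leaves fewer members. Of the alternatives for single named genes, 696 kept direction and side of the threshold, 34 lost a call and 22 gained one. Deviations of same-numbered libraries from their group means correlated at -0.19, -0.24 and -0.55 on PA14 and at 0.08, 0.07 and 0.09 in *egl-44*. With 3 libraries per group the deviations depend on each other, so these values cannot decide whether same-numbered libraries share a batch. The main fits did not pair them. With the replicate block 6 members were called higher on PA14, and 6 rose and 17 fell in *egl-44*. The filter on low values left 11 members untested on PA14 and 15 in *egl-44*.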
